A study of Mus musculus with 8 samples.

Results

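10 genes for transcription factors and a cofactor that act when spermatocytes become spermatids were examined in mouse testis. They were taken by symbol from a table of 17121 genes, and all 10 were present: Crem, Fhl5, Rfx2, Rfx3, Rfx4, Sox30, Tbpl1, Tcfl5, Mybl1 and Foxj1. The 8 RNA-seq libraries are 4 with the genotype label CTL and 4 labelled N6amt1-SKO, from a series on how the methyltransferase N6AMT1 acts in the making of sperm. The labels name testis as the tissue of both groups. They do not spell out SKO, and give no strain, age, Cre driver or number of animals, so each p-value reflects how far these libraries spread, and that spread may be technical. The values are reads per gene that the authors had scaled, by 1 factor for each library, and rounded. They were scaled here between libraries, and these scaled values are called normalised values.

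Spermiogenesis is the shaping of round haploid cells into sperm. CREM, with its cofactor FHL5 (also called ACT), switches on many genes of the spermatid. SOX30 and the TBP-like protein TBPL1 (also called TRF2) are needed in spermatids as well. RFX2, RFX3 and RFX4 bind a DNA element called the X-box in front of ciliary genes, and FOXJ1 is the other well known regulator of motile cilia. MYBL1 (A-MYB) and TCFL5 act earlier, in pachytene spermatocytes, where MYBL1 drives piRNA genes.

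Of the 10 genes 4 fell in the N6amt1-SKO libraries and 0 rose, at an adjusted p below 0.05 from limma with Benjamini-Hochberg adjustment over the 17066 genes tested. Among all genes tested 7.93% fell and 11.9% rose. The 4 were Rfx2, Rfx4, Rfx3 and Tbpl1, and in each of them the groups did not overlap, with all 4 N6amt1-SKO libraries below all 4 CTL libraries. Groups that did not overlap, with N6amt1-SKO lower, were found for 10.6% of all genes, and with N6amt1-SKO higher for 15.6%, a pattern that 0 members had. Each of the 10 log2 fold changes lay below 0, between -0.97 and -0.38, against 47.5% of all genes below 0. Their median was -0.52, where the median of all genes was 0.04. The number that fell depended on single libraries. Without N6amt1-SKO 3 it was 0 (limma; 4 members had an unadjusted p below 0.05 there, and 0 genes of the whole table passed), and it was 2 without CTL 2, without CTL 3, without N6amt1-SKO 1 or without N6amt1-SKO 2. It was also 2 with upper quartile factors and with library totals.

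**Figure D1:**
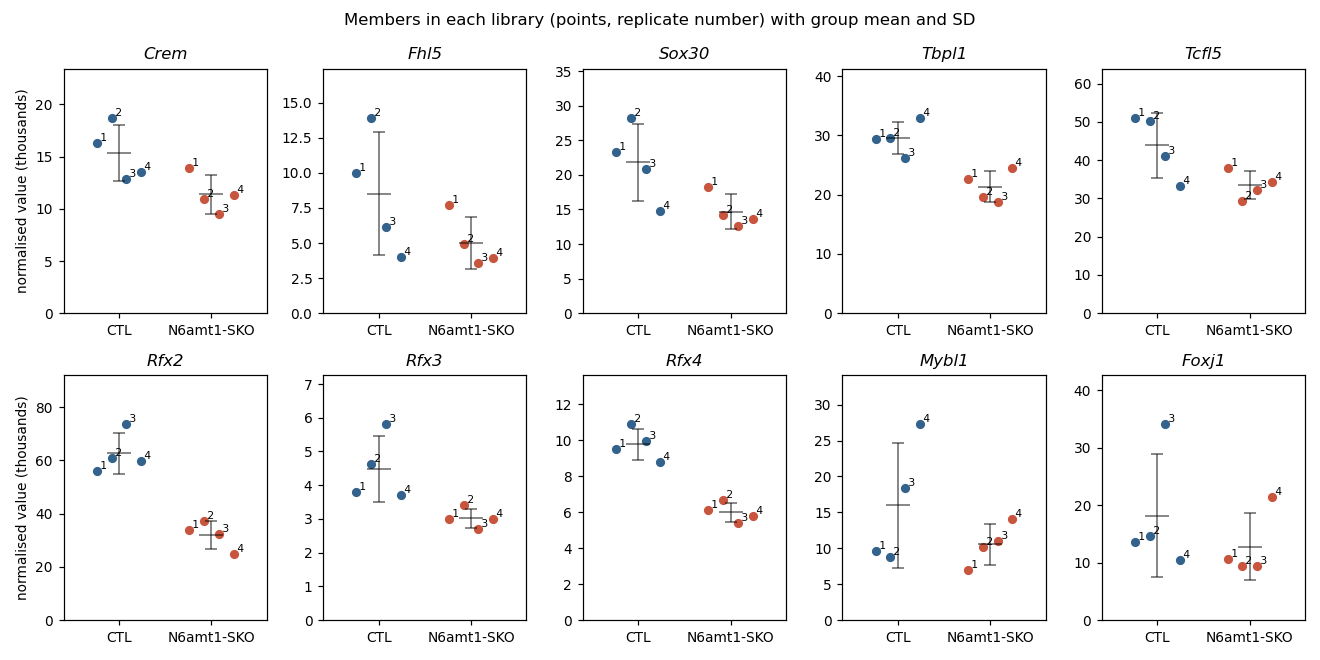
Normalised values (linear axes from 0, in units of 1000) of the 10 genes in each library. Points carry the replicate number, and bars give the group mean ± SD (n = 4). The groups are apart for Rfx2, Rfx3, Rfx4 and Tbpl1 and overlap for the other 6.

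In units of 1e6, the table totals were 94.2 to 103 per library, with about 40.6 to 250.4 reads behind them, and CTL 1 and CTL 2 were the deepest. The scaling factors of CTL 1 and CTL 2, and so their depths and read numbers, rest on a weaker signal than those of the other libraries. The 10 genes had 1281 to 136190 reads in a library, which gives a counting error of at most 2.79%, well under the spread between libraries. 18S ribosomal RNA took 0.721% to 0.969% of the values in CTL 3, CTL 4 and N6amt1-SKO 4 and 0.173% to 0.273% in the other 5, so results are also given within these library sets. N6amt1 itself had 433 to 629 in CTL and 557 to 625 in N6amt1-SKO (log2 fold change 0.19, limma adjusted p = 0.437). A sum over the whole gene does not show a deleted exon, and therefore does not check the labels.

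Marker lists describe what the libraries held, and their counts stand beside 11.9% of all genes that rose and 7.93% that fell. Of 20 Sertoli cell markers 14 rose (8 without CTL 3, 9 without N6amt1-SKO 2, 0 without N6amt1-SKO 3) and 0 fell, with summed normalised values of 129439 to 222649 in CTL and 227740 to 411044 in N6amt1-SKO. Of 12 spermatocyte markers 1 rose and 2 fell, with log2 fold changes from -0.78 to 0.81. At an unadjusted limma p below 0.05, 3 were lower and 1 higher. The summed normalised values of the spermatocyte markers were 690962.5 to 1024877.3 in CTL and 602707.6 to 723038.2 in N6amt1-SKO. Of 12 round spermatid and of 12 elongating spermatid markers 0 rose and 0 fell by limma (0 and 1 lower at an unadjusted p below 0.05, and 0 in both by voom), but their sums ran from 75088 to 247961 and from 214415 to 985834 within CTL, with N6amt1-SKO at 93709 to 180774 and 272730 to 774708. Of 9 spermatogonia markers 4 rose, of 7 peritubular myoid markers 4, of 9 Leydig markers 2, of 9 macrophage markers 1 and of 8 endothelial markers 2, and in these 5 lists 0 fell. These marker counts rest on few libraries: each is 0 without N6amt1-SKO 3, and over the 19 alternatives spermatogonia rises ran from 0 to 7, myoid rises from 0 to 7, Leydig rises from 0 to 3, macrophage rises from 0 to 5, endothelial rises from 0 to 3 and spermatocyte falls from 0 to 7. Leaving out CTL 3, N6amt1-SKO 1 or N6amt1-SKO 2 also took the spermatogonia rises to 2. The Leydig markers went both ways, with log2 fold changes from -1.17 to 1.04. At an unadjusted limma p below 0.05, 2 of them were lower and 3 higher. Nr5a1, which rose, is in both the Leydig and the Sertoli list. Of 12 multiciliated and efferent duct markers 0 rose and 1 fell (0 when any single library but CTL 4 was left out), and of 2 epididymis markers 0 changed. Of 5 heart muscle markers 2 rose, and the heart genes Actc1, Nppa, Nppb, Myl2 and Myl3 were not in the table, although the extraction text names heart ventricles. In whole testis, fewer cells of a type and less RNA per cell cannot be told apart, for each gene described here. The part of the Sertoli, spermatocyte and spermatid shifts in the results below was not tested.

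Sequences before the start sites are shown for the RFX genes whose values were furthest apart and, for comparison, for Tcfl5, since all of them hold the MYB motif AACNGNC. Each is the 250 bases before a RefSeq start (GRCm38.p6), 5′ to 3′ on the strand of the gene. Capitals mark the MYB motif, the RFX half-site GTTGCC and the SOX motif ACAATNG on either strand.
Rfx2 (chr17:56831009-56831258, minus strand): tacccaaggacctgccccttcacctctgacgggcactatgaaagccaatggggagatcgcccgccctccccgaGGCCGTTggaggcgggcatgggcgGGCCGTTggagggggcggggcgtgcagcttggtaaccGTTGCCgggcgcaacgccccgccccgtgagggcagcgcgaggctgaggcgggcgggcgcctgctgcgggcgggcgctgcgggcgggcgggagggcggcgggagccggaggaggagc
Rfx4, upstream start (chr10:84755798-84756047, plus strand): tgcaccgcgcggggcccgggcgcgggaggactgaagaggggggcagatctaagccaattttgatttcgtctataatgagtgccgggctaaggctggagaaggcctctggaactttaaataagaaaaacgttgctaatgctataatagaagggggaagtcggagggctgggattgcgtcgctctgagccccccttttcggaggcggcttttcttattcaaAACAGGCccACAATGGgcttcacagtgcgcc
Rfx4, downstream start (chr10:84837898-84838147, plus strand): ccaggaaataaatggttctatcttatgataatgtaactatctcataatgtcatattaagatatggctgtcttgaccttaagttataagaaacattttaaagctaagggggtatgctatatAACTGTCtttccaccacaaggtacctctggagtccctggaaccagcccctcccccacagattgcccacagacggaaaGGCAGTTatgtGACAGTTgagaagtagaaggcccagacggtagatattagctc
Tcfl5 (chr2:180642692-180642941, minus strand): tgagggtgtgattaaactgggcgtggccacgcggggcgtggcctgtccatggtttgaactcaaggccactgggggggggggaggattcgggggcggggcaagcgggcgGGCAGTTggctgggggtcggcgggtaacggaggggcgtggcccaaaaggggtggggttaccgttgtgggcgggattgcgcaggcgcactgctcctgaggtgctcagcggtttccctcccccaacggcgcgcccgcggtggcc

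The RefSeq table held start-site sequences for 7 of the 10 genes (9 windows), and Crem, Mybl1 and Foxj1 are named only. The MYB motif stood in 5 of the 9 windows, those of Rfx2, Rfx3, Rfx4 (both) and Tcfl5, against 27.7% of the 32851 windows of the same length in the table. The RFX half-site stood in the Rfx2 window, against 10.4% of all windows, and the SOX motif in the windows of Rfx4 and Fhl5, against 6.91%. The full cyclic AMP response element TGACGTCA, the CREM site, stood in none of the 9 (1.55% of all), its half-site TGACG, which the full element contains, in the Rfx2 window (17.8% of all), and the X-box (0.83% of all) and the FOX motif GTAAACA (3.17% of all) in none. The RFX half-site can lie within an X-box, and apart from that and the CRE pair the motifs were searched independently. The X-box was searched on the strand of the gene only, and the other motifs on either strand. A match is a run of letters and not a measured site.

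Rfx2 and Rfx4 had the largest log2 fold changes of the 10. Rfx2 (GRCm38, chromosome 17, 56775897 to 56831008) had normalised values of 56183, 60999, 73561 and 59772 in CTL 1 to 4 and 33807, 37317, 32480 and 24903 in N6amt1-SKO 1 to 4. The lowest CTL library stood far above the highest N6amt1-SKO library, with means of 62629 ± 7569 and 32127 ± 5230 (SD, n = 4 each). Rfx2 fell 1.96-fold, or by 0.97 on the log2 scale (standard error, SE, 0.16), and limma gave an adjusted p of 0.0123. RFX2 is the RFX protein known to be required for spermatids to develop a tail. The log2 fold change was -0.77 within the 5 libraries with less 18S (limma adjusted p = 0.0165) and -1.40 within the 3 with more (limma adjusted p = 0.0218), where 1 library stands for N6amt1-SKO. Without N6amt1-SKO 3 the log2 fold change was nearly the same, -0.98, and the limma adjusted p was 0.0569.

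Rfx4 (chromosome 10, 84756036 to 84906538), which has a testis form beside its better known role in brain, had 9504, 10875, 9933 and 8809 in CTL 1 to 4 and 6104, 6655, 5419 and 5771 in N6amt1-SKO 1 to 4. Relative to their means these were the tightest groups among the members, with means of 9780 ± 864 and 5987 ± 526 (SD, n = 4 each). Rfx4 fell 1.63-fold (log2 fold change -0.71, SE 0.13, limma adjusted p = 0.0131). The size was close within the less and more 18S libraries, -0.75 and -0.68 on the log2 scale, though only the first passed (limma adjusted p = 0.0168 and 0.229). Without N6amt1-SKO 3 it was -0.66 (limma adjusted p = 0.0576). With library totals Rfx2 and Rfx4 still fell, by 0.68 and 0.42 on the log2 scale, where the median of all genes stood at 0.33.

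Rfx3 (chromosome 19, 27761721 to 28014669), a regulator of motile and primary cilia, was the least abundant of the 10. It had 3804, 4621, 5803 and 3706 in CTL 1 to 4 and 2997, 3403, 2710 and 2988 in N6amt1-SKO 1 to 4. The gap between the groups was narrow, from 3403 to 3706. Rfx3 fell 1.46-fold (log2 fold change -0.55, SE 0.17, limma adjusted p = 0.0472). This call lies close to the threshold and was lost in 11 of the 19 alternatives, among them each single library left out but CTL 1 and CTL 4. Over all 19 the log2 fold change ran from -0.67 to -0.26 and the limma adjusted p from 0.029 to 0.362.

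The other RFX genes gave 0 rises and 0 falls among 7 tested by limma. At an unadjusted p below 0.05 there were 0, and by voom 0. 1 fell without CTL 4 and 1 without N6amt1-SKO 4, and rises ran from 0 to 1 over the 19 alternatives. Within the less 18S libraries Rfx8 fell by 0.57 on the log2 scale (limma adjusted p = 0.0194). Rfx3 was at -0.47 there (limma adjusted p = 0.0529). Within the more 18S libraries the log2 fold changes of Rfx8 and Rfx3 were -0.11 and -0.62. Rfx1 had a log2 fold change of -0.43 (95% interval -1.16 to 0.29), and Rfx8 of -0.64 (95% interval -1.36 to 0.07). Rfx5, which with Rfxap and Rfxank switches on MHC class II genes, stood at -0.01 (95% interval -0.33 to 0.31), and the log2 fold changes of Rfxap and Rfxank were 0.28 and 0.02. Rfx7 stood at 0.14, and Rfx6 had normalised values of at most 119 in any library. Whether Rfx2, Rfx3 and Rfx4 differ from these relatives was not tested.

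Crem (chromosome 18, 3266354 to 3337773) encodes both activators and repressors, in 39 GENCODE transcripts that the table sums. It had 16259, 18741, 12839 and 13528 in CTL 1 to 4 and 13949, 10929, 9471 and 11285 in N6amt1-SKO 1 to 4. The groups overlapped through N6amt1-SKO 1, which lay above CTL 3 and CTL 4. The means were 15342 ± 2705 and 11408 ± 1867 (SD, n = 4 each), a log2 fold change of -0.42 (95% interval -0.81 to -0.04, limma adjusted p = 0.102). 8.0% of the exon bases of Crem overlap Gm6225 on the opposite strand. Fhl5, the testis cofactor of CREM, had 9971, 13945, 6123 and 4016 in CTL 1 to 4 and 7680, 4906, 3607 and 3923 in N6amt1-SKO 1 to 4. Its spread within CTL was over 3-fold, and it did not pass (log2 fold change -0.67, SE 0.38, limma adjusted p = 0.228). Both fell within the less 18S libraries, Crem by 0.63 and Fhl5 by 1.20 on the log2 scale (limma adjusted p = 0.0395 and 0.032). In that set 2283 of the 17003 genes tested fell. Its CTL libraries are CTL 1 and CTL 2, the CTL libraries highest in spermatid markers. The median log2 fold change there was -0.88 for round and -1.24 for elongating spermatid markers. Within the more 18S libraries these medians were 0.12 and 0.51, and Crem and Fhl5 were at -0.21 and -0.32.

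Sox30 (chromosome 11, 45979069 to 46017992) had 23300, 28287, 20789 and 14819 in CTL 1 to 4 and 18316, 14136, 12561 and 13610 in N6amt1-SKO 1 to 4. Only N6amt1-SKO 1 lay above the lowest CTL library, CTL 4. The log2 fold change was -0.55 (SE 0.21, limma adjusted p = 0.0878), and -0.75 without CTL 4 (limma adjusted p = 0.0246). Sox30 fell by 0.79 on the log2 scale within the less 18S libraries (limma adjusted p = 0.024), and within the more 18S libraries its log2 fold change was -0.35 (limma adjusted p = 0.535). Tcfl5, a basic helix-loop-helix factor of pachytene cells, had 51131, 50140, 40961 and 33128 in CTL 1 to 4 and 37937, 29354, 32140 and 34285 in N6amt1-SKO 1 to 4. Its groups overlapped, with a log2 fold change of -0.38 (95% interval -0.76 to 0.01, limma adjusted p = 0.14), and it fell by 0.54 on the log2 scale without CTL 4 (limma adjusted p = 0.0431). For Tcfl5 the less 18S libraries gave -0.62 (limma adjusted p = 0.021) and the more 18S libraries -0.09 (limma adjusted p = 0.887). 7.4% of its exon bases overlap Col9a3 on the opposite strand.

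Tbpl1 (chromosome 10, 22703877 to 22732666) had 29423, 29609, 26261 and 33018 in CTL 1 to 4 and 22607, 19557, 18767 and 24533 in N6amt1-SKO 1 to 4. The highest N6amt1-SKO library, 24533, came close to the lowest CTL library, 26261. Tbpl1 fell 1.39-fold, from 29578 ± 2760 in CTL to 21366 ± 2683 in N6amt1-SKO (SD, n = 4 per group; log2 fold change -0.47, SE 0.14, limma adjusted p = 0.0411). The call was lost when any single library but N6amt1-SKO 4 was left out (log2 fold changes -0.58 to -0.41, limma adjusted p = 0.0564 to 0.132), and with library totals the log2 fold change was -0.18 (limma adjusted p = 0.36). Within the less 18S libraries Tbpl1 was at -0.55 (limma adjusted p = 0.0219) and within the more 18S libraries at -0.25 (limma adjusted p = 0.65). 12.4% of its exon bases overlap Slc2a12 on the opposite strand, and the library kit does not mark strand.

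Mybl1 (chromosome 1, 9667407 to 9700439) had 9559, 8763, 18402 and 27244 in CTL 1 to 4 and 6975, 10122, 11020 and 14047 in N6amt1-SKO 1 to 4. The highest values were those of CTL 4, CTL 3 and N6amt1-SKO 4, the libraries with more 18S. The log2 fold change was -0.49 (SE 0.36, limma adjusted p = 0.366), 0.0054 within the less 18S libraries and -0.66 within the more 18S libraries. Foxj1 (chromosome 11, 116330704 to 116335499) had 13613, 14622, 34079 and 10533 in CTL 1 to 4 and 10719, 9504, 9364 and 21510 in N6amt1-SKO 1 to 4. Foxj1 stood apart from the rest of the group in CTL 3 and N6amt1-SKO 4, both with more 18S. It had its lowest CTL value in CTL 4, also with more 18S. Its log2 fold change was -0.45 (SE 0.38, limma adjusted p = 0.424), with -0.52 in the less (limma adjusted p = 0.0218) and 0.20 in the more 18S libraries (limma adjusted p = 0.864).

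**Figure D2:**
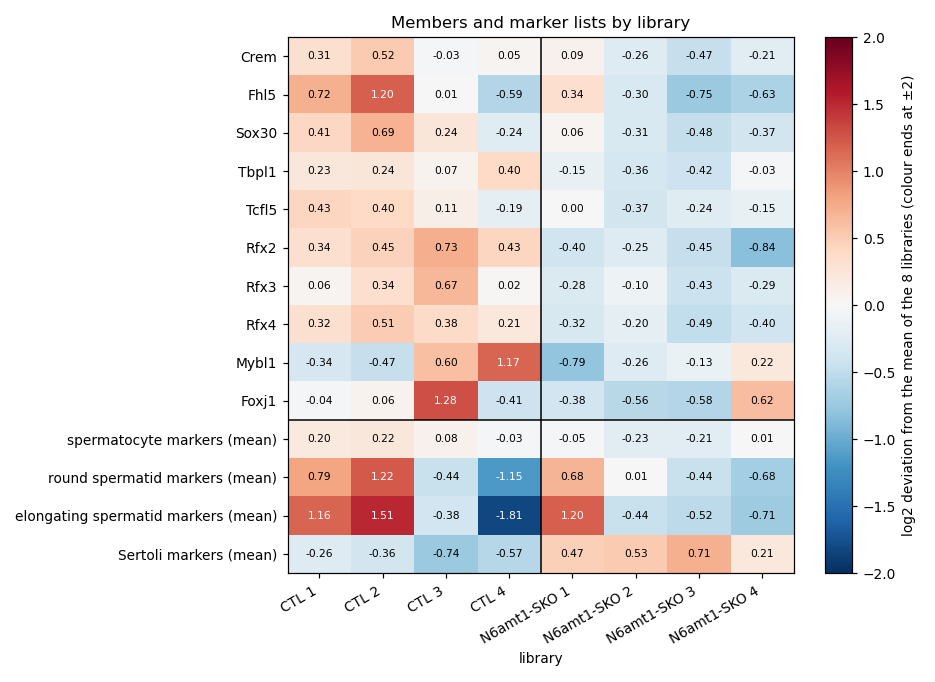
Log2 deviation of each gene (log2 of the normalised value plus 5), and of the mean of each marker list, from its mean over the 8 libraries. Fhl5 and the round spermatid markers are highest in CTL 1 and CTL 2, and the elongating spermatid markers in CTL 2, N6amt1-SKO 1 and CTL 1, whereas Rfx2, Rfx3, Rfx4 and Tbpl1 are above their mean in all CTL and below it in all N6amt1-SKO libraries.

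The members differed in how they varied within a group, without a clean split, as the map of deviations by library shows. Fhl5 deviated by 0.72 and 1.20 on the log2 scale in CTL 1 and CTL 2 and by -0.59 in CTL 4, in the order of the round spermatid markers (0.79, 1.22 and -1.15). Sox30 (0.41, 0.69 and -0.24) had the same order in these libraries at a smaller range. N6amt1-SKO 1 was the highest N6amt1-SKO library for both genes and for the spermatid markers. Rfx2 deviated by 0.34, 0.45, 0.73 and 0.43 in CTL 1 to 4, although the spermatid markers differed strongly among these libraries. Rfx4 likewise stayed between 0.21 and 0.51 in CTL and between -0.49 and -0.20 in N6amt1-SKO. Rfx3 varied more within CTL (0.06, 0.34, 0.67 and 0.02 in CTL 1 to 4). Crem (0.31 and 0.52) and Tcfl5 (0.43 and 0.40) were also highest in CTL 1 and CTL 2. Mybl1 was highest in CTL 4 (1.17) and Foxj1 in CTL 3 (1.28). Sertoli markers lay between -0.74 and -0.26 in CTL and between 0.21 and 0.71 in N6amt1-SKO. They were opposite in sign to Rfx2, Rfx3, Rfx4 and Tbpl1 in each library. That restates the group differences, because the Sertoli markers and these genes each separate the groups. A relation within the groups was not tested.

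Levels were compared between members as normalised value per kilobase of exon in the CTL libraries. Tcfl5 was highest (13850 ± 2679, SD, n = 4), above Tbpl1 (9042 ± 844) with no overlap of the libraries. Rfx2 (8566 ± 1035), Sox30 (7274 ± 1869), Fhl5 (7271 ± 3741) and Foxj1 (6943 ± 4087) followed, and each neighbouring pair from Tbpl1 down to Foxj1 overlapped. Mybl1 (2960 ± 1607), Crem (2603 ± 459) and Rfx4 (2070 ± 183) formed a lower set whose neighbours also overlapped, as did Foxj1 and Mybl1. Rfx3 (406 ± 88.0) was the lowest, with no overlap with Rfx4. In N6amt1-SKO the level of Rfx2 was 4394 ± 715 per kilobase and that of Rfx4 1267 ± 111. Exon length was the union of all annotated transcripts, which understates the level of genes with long unused exons.

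Genes whose log2 values ran most like a member over the 8 libraries were named by Pearson correlation, as a description that includes the group difference and the shared libraries. For Rfx2 these were Rab11fip5 (0.992) and Stt3b (0.991), for Crem Ccser2 (0.993) and Poc1b (0.988), for Sox30 Slc30a3 (0.995) and Brsk2 (0.989). For Tbpl1 they were Tmc1 (0.981) and Hspb6 (0.977), for Tcfl5 Coq4 (0.989) and Lmf1 (0.984), and for Mybl1 Ric8a (0.994) and Plrg1 (0.992).

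**Figure D3:**
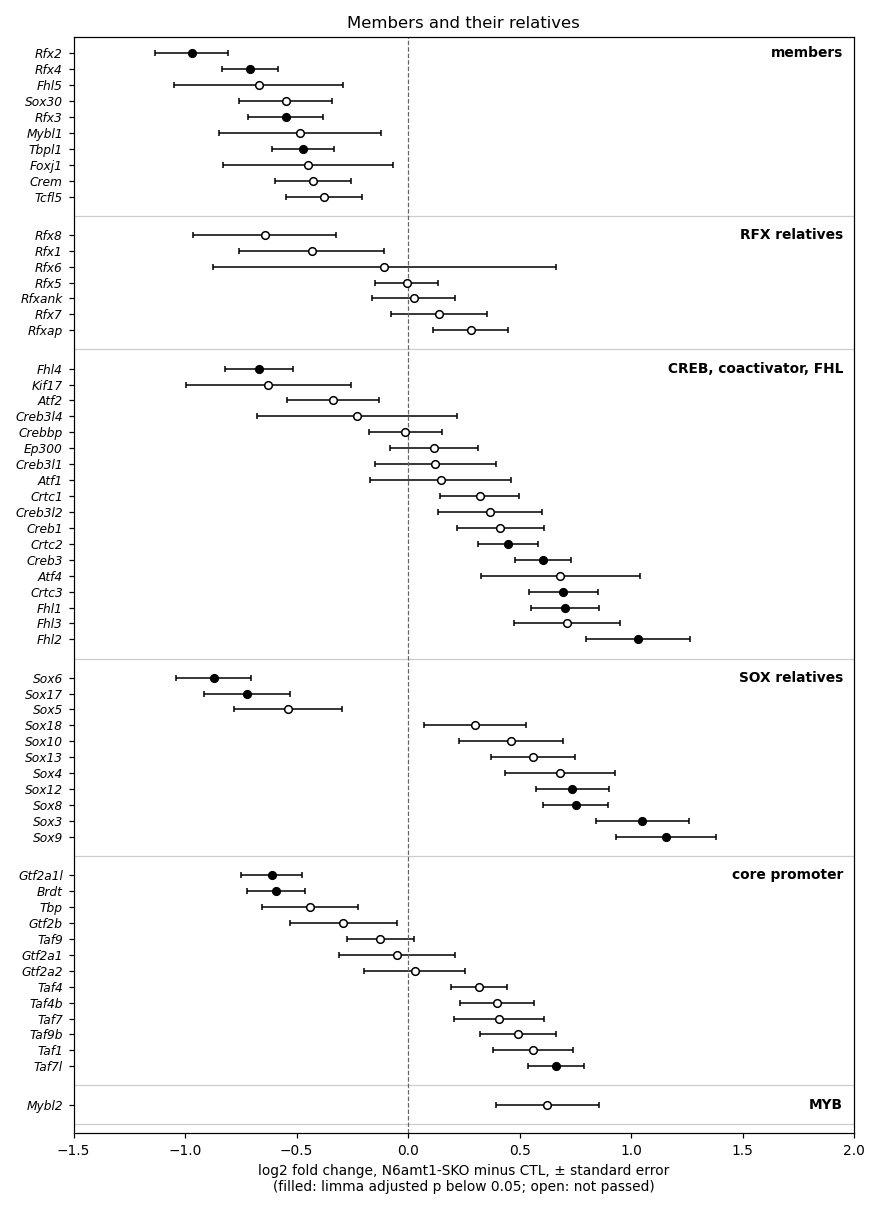
Log2 fold change (N6amt1-SKO minus CTL) ± standard error of the members and of their relatives, filled where the limma adjusted p is below 0.05. All 10 members lie below 0, and the relatives lie on both sides.

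Relatives and partners of CREM went both ways. Of 18 tested genes for CRE-binding proteins, their coactivators and LIM-only proteins 5 rose and 1 fell, with a median log2 fold change of 0.34. Among all genes 11.9% rose and 7.93% fell. The one that fell was Fhl4, a testis LIM-only protein like FHL5 and the most abundant gene of the list, from 217588 ± 24117 in CTL to 136719 ± 13717 in N6amt1-SKO (SD, n = 4 per group; log2 fold change -0.67, limma adjusted p = 0.0193). The somatic relatives Fhl2 and Fhl1 rose 2.04-fold and 1.63-fold, and Crtc3, a coactivator of CREB, 1.62-fold (limma adjusted p = 0.0177 to 0.0195). Creb3 rose 1.52-fold and Crtc2 1.36-fold, and 20.8% of the exon bases of Creb3 overlap other genes. Kif17, the kinesin that carries FHL5 out of the spermatid nucleus, averaged 30655 ± 13290 in CTL and 18711 ± 5841 in N6amt1-SKO (SD, n = 4 per group; limma adjusted p = 0.247). The 5 rises became 0 without CTL 3 or N6amt1-SKO 3, 1 without N6amt1-SKO 1 and 2 without CTL 2 or N6amt1-SKO 2, and with library totals 8 genes rose. The fall of Fhl4 was lost without N6amt1-SKO 2 or N6amt1-SKO 3 and with library totals.

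Of 11 SOX relatives 2 fell and 4 rose (median log2 fold change 0.56), where 7.93% of all genes fell and 11.9% rose. Sox6, the most abundant of them, and Sox17 fell 1.83-fold and 1.65-fold (limma adjusted p = 0.0143 and 0.0319), while Sox5, known from spermatids, had a log2 fold change of -0.54 and missed the threshold (limma adjusted p = 0.137). The Sertoli cell factors Sox9 and Sox8 rose 2.23-fold and 1.68-fold, Sox3, a gene of spermatogonia, 2.07-fold and Sox12 1.66-fold (limma adjusted p = 0.0141 to 0.0188). 16.8% of the exon bases of Sox17 overlap another gene. These counts became 0 and 0 without N6amt1-SKO 3 and 1 and 7 with library totals, and 1 gene fell without CTL 1, CTL 3, N6amt1-SKO 1, N6amt1-SKO 2 or N6amt1-SKO 4. Mybl2, the MYB relative of dividing cells, had a log2 fold change of 0.62 (limma adjusted p = 0.0823), and Myb was not in the table.

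Among 13 core promoter factors 2 fell and 1 rose (median log2 fold change 0.03), where 7.93% of all genes fell and 11.9% rose. Brdt, a testis bromodomain protein and the most abundant of them, fell 1.51-fold and Gtf2a1l, the germ cell form of TFIIA, 1.53-fold (limma adjusted p = 0.0188 and 0.0193). Taf7l, an X-linked TFIID subunit of germ cells, rose 1.58-fold, from 4505 ± 420 in CTL to 7131 ± 583 in N6amt1-SKO (SD, n = 4 per group; limma adjusted p = 0.0139). Tbp, the founding relative of TBPL1, had a log2 fold change of -0.44 (limma adjusted p = 0.168). The 2 falls became 0 without N6amt1-SKO 3 and with library totals, and 1 without N6amt1-SKO 1 or N6amt1-SKO 2. The rise of Taf7l was lost without N6amt1-SKO 3, 3 genes rose without CTL 4 and 6 with library totals.

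**Figure D4:**
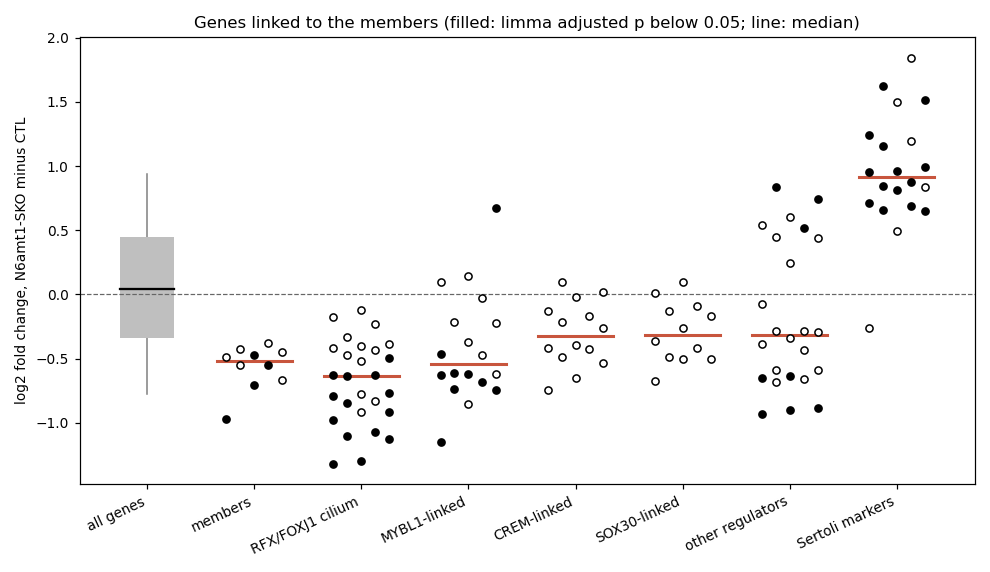
Log2 fold change (N6amt1-SKO minus CTL) of all genes tested (bar from the 25th to the 75th percentile, line from the 5th to the 95th) and of each gene of the lists linked to the members. Filled points passed, and coloured lines are medians, at -0.64 for the cilium genes, -0.54 for the MYBL1-linked and -0.33 for the CREM-linked genes.

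Ciliary genes are the known targets of RFX proteins and FOXJ1. Of 27 tested 14 fell and 0 rose, the median log2 fold change was -0.64, and each of the 27 lay below 0. Among all genes 7.93% fell, 11.9% rose and 47.5% lay below 0. Hydin, a central pair protein of the axoneme, was at -1.32 and the dynein heavy chain Dnah1 at -1.30 on the log2 scale (limma adjusted p = 0.0159 and 0.0236). Spag17, also of the central pair, fell 2.18-fold, from 53191 ± 11435 in CTL to 24034 ± 2392 in N6amt1-SKO (SD, n = 4 per group; limma adjusted p = 0.0123). Rsph1, a radial spoke protein and the most abundant of the list over the 8 libraries, averaged 85491 ± 12705 in CTL and 74290 ± 20764 in N6amt1-SKO (SD, n = 4 per group), short of the threshold (limma adjusted p = 0.468). Hydin, Dnah1 and Spag17 had log2 fold changes of -0.81, -0.72 and -0.81 within the less 18S libraries and -1.78, -1.76 and -1.53 within the more 18S libraries. The count was 0 without N6amt1-SKO 3, 8 without CTL 3, N6amt1-SKO 1 or N6amt1-SKO 2, and 7 with library totals.

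The X-box, searched on the strand of the gene only, was found before 1 of the 21 ciliary genes with a start-site sequence, Spag16. This central pair gene fell 1.97-fold (limma adjusted p = 0.0123). The match is shown because it is the only one found in this list, and the whole match is in capitals.
Spag16 X-box (GRCm38.p6, chr1:69826867-69826880, plus strand): GTTGCCGTAGTAAC
The RFX half-site stood in 24.0% of the 25 windows of these genes and the MYB motif in 48.0%, where all windows gave 10.4% and 27.7%. Multiciliated and efferent duct markers had the RFX half-site in 33.3% of 15 windows, Leydig markers in 28.6% of 7 and Sertoli markers in 0.0% of 12. The X-box was not particular to the ciliary list. It stood in 1 of the 15 windows of multiciliated and efferent duct markers and in 1 of 20 of the relatives and partners of CREM.

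Among 18 MYBL1-linked genes 8 fell and 1 rose (median log2 fold change -0.54), where 7.93% of all genes fell and 11.9% rose. The chromatoid body gene Tdrd6, the most abundant, fell 2.22-fold, Piwil1, which binds pachytene piRNAs, 1.67-fold and Tdrd1 1.67-fold (limma adjusted p = 0.0159, 0.015 and 0.0488). Fkbp6, a chaperone partner of the piRNA machinery, rose 1.59-fold, from 6293 ± 628 in CTL to 10003 ± 616 in N6amt1-SKO (SD, n = 4 per group; limma adjusted p = 0.0136), with no overlap of the groups. The falls came to 0 without N6amt1-SKO 3, 2 without N6amt1-SKO 1, 3 without CTL 3, 4 without N6amt1-SKO 2, and 2 with library totals. The rise was lost without N6amt1-SKO 3. The MYB motif stood in 47.6% of the 21 windows of these genes. It was not particular to them. Spermatocyte markers had it in 64.3% of 14 windows, heart muscle markers in 71.4% of 7 and CREM-linked genes in 12.5% of 16.

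Genes known to depend on CREM or SOX30 gave no calls with all 8 libraries. Of 14 CREM-linked genes 0 fell and 0 rose by limma (median log2 fold change -0.33), and of 12 SOX30-linked genes 0 fell and 0 rose (median -0.31), with 4 genes in both lists. At an unadjusted p below 0.05 both lists had 0 genes, and by voom also 0. Both lists share genes with the marker lists above and are not separate from them. Prm1, Prm2, Tnp1, Tnp2, Odf1, Smcp, Akap4 and Gapdhs are also elongating spermatid markers. Ldhc and Pgk2 are also spermatocyte markers, and Acrv1, Spaca1, Dkkl1 and Capza3 of the SOX30-linked list are also round spermatid markers. Other lists share genes with the marker lists too. Piwil1 and Ccna1 of the MYBL1-linked list, Spag6 of the ciliary list and Ybx2 of the regulators below are also spermatocyte markers. Sox9 of the SOX relatives is also a Sertoli marker. The protamine gene Prm1 had a log2 fold change of -0.49 with a 95% interval of -2.31 to 1.33, and Prm2 0.10 with -2.25 to 2.45, so changes over 2-fold either way lie inside these intervals. Ldhc, the sperm lactate dehydrogenase, averaged 277533 ± 92373 in CTL and 204355 ± 35776 in N6amt1-SKO (SD, n = 4 per group; limma adjusted p = 0.284), and the transition protein gene Tnp2 86706 ± 56450 in CTL and 61971 ± 54395 in N6amt1-SKO (SD, n = 4 per group; limma adjusted p = 0.714). Within the less 18S libraries 5 CREM-linked genes fell, with a list median of -1.20, and within the more 18S libraries 0 fell, with a median of 0.27. Of the SOX30-linked genes 1 fell within the less 18S libraries, where the list median was -1.12, and 0 within the more 18S libraries, where it was 0.25. Without CTL 4 2 CREM-linked genes fell. Of all 17003 genes tested within the less 18S libraries 2283 fell.

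Of 24 other regulators of spermatocytes and spermatids 5 fell and 3 rose (median log2 fold change -0.32), where 7.93% of all genes fell and 11.9% rose. Nr6a1, a nuclear receptor of round spermatids, fell 1.91-fold, and Zfp541 and Kctd19, partners in pachytene cells, 1.87-fold and 1.85-fold (limma adjusted p = 0.0137 to 0.0157). The cell cycle factor E2f1 rose 1.67-fold, Rhox13, an X-linked homeobox gene of the germ line, 1.79-fold and Nfya 1.43-fold (limma adjusted p = 0.0316 to 0.0394). Ybx2, a germ cell RNA-binding protein and the most abundant of the list, averaged 147939 ± 41656 in CTL and 118895 ± 21870 in N6amt1-SKO (SD, n = 4 per group; limma adjusted p = 0.438). The falls came to 0 without N6amt1-SKO 3, and the rises to 0 without CTL 2, CTL 3, N6amt1-SKO 1 or N6amt1-SKO 3 and to 1 without N6amt1-SKO 2 or with median-ratio factors. With library totals 3 fell and 6 rose.

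**Figure D5:**
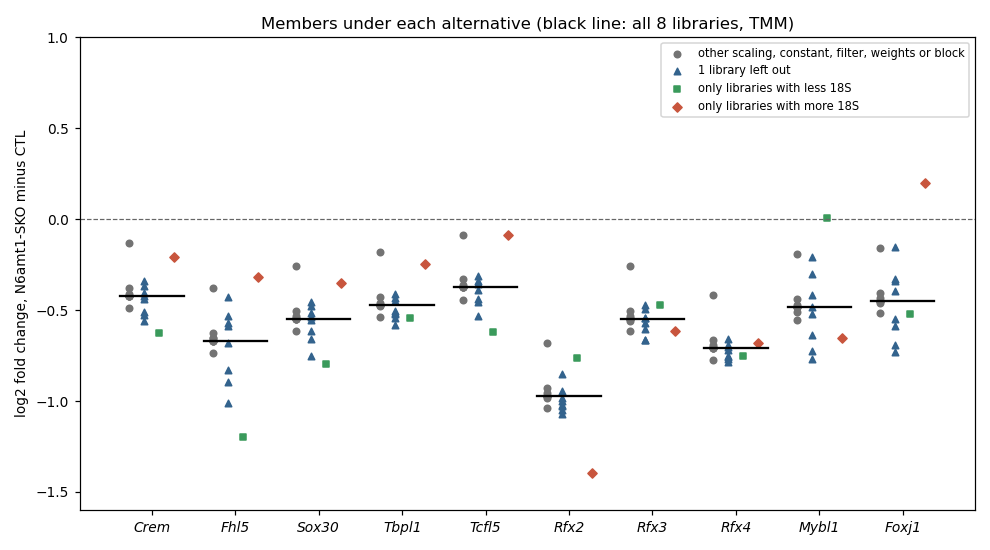
Log2 fold change (N6amt1-SKO minus CTL) of each member under the 19 alternatives, by kind, with the value of all 8 libraries as a black line. Rfx2 and Rfx4 stay below -0.4 throughout, while Mybl1 within the less 18S libraries and Foxj1 within the more 18S libraries lie at or above 0.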

How the data were processed

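RNA-seq was measured in 4 CTL and 4 N6amt1-SKO testis libraries, grouped by sample title. Per the labels' protocols the kit was NEBNext Ultra RNA, which does not mark strand. The submitters' processing notes list mm10 as the build and name featureCounts 1.5.0-p3, HISAT2 2.0.5, fastp and CASAVA as tools. The deposited values are a score: the authors multiplied the reads by a factor per library and rounded. This was read from which whole numbers occur, and the factors of CTL 1 and CTL 2 rest on a weaker signal. The scaling method and the floor on low genes (lowest row maximum 95) are not given in the sources used here. Because these are not raw counts, limma replaced a count test.

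The filter, a value of 25 or more in 4 or more libraries, left 17066 genes, all 10 members among them. Values divided by TMM factors (trims of 30% and 5%) were taken as log2(value + 5), a scale that understates changes of low genes, and the fit used R 4.3.3 and limma 3.58.1 with a variance trend and no covariate, two-sided, Benjamini-Hochberg adjusted, threshold 0.05. The fit was tested on simulated data. The 18S limit of 0.5% was set with the values known. No 2 libraries were duplicates (lowest chi-square per gene 36.3).

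The members and lists were chosen with earlier results of these data known. Lists are described by counts and medians. Text names all members, all tested genes of family lists under 8 genes, otherwise up to 3 fallen and 3 risen genes with the largest change and the most abundant gene, and the 2 genes most correlated with each of 6 members. The rule also reaches the marker lists, which are given by list values only, apart from genes shared between lists or absent from the table. Creb3, Crtc2, Kif17, Sox5, Sox12, Tbp, Spag16, Prm1 and Prm2 were named beyond this rule, after their values were seen. Coordinates and start-site sequences are RefSeq's (GRCm38.p6, of which mm10 is the browser name), exon lengths and overlaps GENCODE M21's. Alternatives changed scaling, constant, filter, weights, block and libraries.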

Additional observations from a re-analysis of the deposited data

Results flagged for a closer look

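Foxj1 had a normalised value of 21510 in N6amt1-SKO 4, far from the other 3 N6amt1-SKO libraries, with a gap of 0.888 of the group's range, above Dixon's critical value of 0.829. Of 22 groups tested this was 1, and chance flags about 1 in 20. N6amt1-SKO 4 is also the N6amt1-SKO library with more 18S, but CTL 4, with more 18S too, had the lowest Foxj1 value in CTL, 10533.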

How the results depend on the processing

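Under 19 alternatives, each of the 10 log2 fold changes stayed below 0 except that of Mybl1 within the less 18S libraries (0.0054) and that of Foxj1 within the more 18S libraries (0.20); the cause was not tested. The number of members that fell (4) was 2 with upper quartile factors and 2 with library totals, 8 within the less 18S libraries and 1 within the more 18S libraries, and ran from 0 to 5 with single libraries left out. It kept within 1.5 times in 10 of 19 alternatives, and 0 members rose in all 19. Rfx2 passed in 18, Rfx4 in 17, Tbpl1 in 9 and Rfx3 in 8 of them. Library totals moved the median of all genes from 0.04 to 0.33, and risen genes from 60.1% to 91.5% of all calls; upper quartile factors gave 67.4% and median-ratio factors 49.2%. Calls over the whole table (1354 fell, 2038 rose) became 456 and 4885 with library totals, 2283 and 3194 within the less and 252 and 43 within the more 18S libraries, and 0 and 0 without N6amt1-SKO 3 (4784 genes at an unadjusted p below 0.05). With the replicate number as a block 3 members fell, Rfx3 being lost (limma adjusted p = 0.0547), and 1701 genes fell and 2162 rose. Deviations of same-numbered libraries correlated at 0.673, 0.0119, 0.082 and 0.231, so the numbers were not taken as pairs. The more 18S set holds 1 N6amt1-SKO library, assumed to vary like CTL. The counting error of the members, at most 2.79%, was below the spread between libraries. What kept members from passing was not tested.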
